A study of Mus musculus with 8 samples.

Results

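Potassium channel genes were examined in the cerebral cortex of newborn mice that lacked estrogen-related receptor gamma (ERRγ) and of wild-type mice of the same age. The members were all probes of an Illumina bead array whose gene symbol in the platform annotation begins with Kcn. There were 117 such probes for 80 genes, out of 25697 probes for 16561 gene symbols. The groups were ERRγ-/- cortex and wild type cortex, both at postnatal day 0, each with 2 biological samples and 2 arrays per sample, which gave 8 arrays in all. ERRγ is an orphan nuclear receptor that activates genes of mitochondrial oxidative metabolism, and the comparison asks which transcripts differ in its absence. The sources used here give neither how the null allele was made nor strain and sex. They also do not say whether a sample was 1 animal or a pool. The p-values therefore rest only on the spread between these samples and, through the test used, on that over all genes tested.

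Potassium channels let potassium leave the cell and so set the resting potential, shorten action potentials and limit repetitive firing. Voltage-gated channels open on depolarisation, inward rectifiers and two-pore channels hold the membrane near rest, and calcium-activated channels follow calcium entry. Accessory subunits carry no pore of their own and alter the gating or surface level of the pore-forming subunits. Potassium currents of cortical neurons are known to grow as the neurons mature.

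Mean intensity before normalization ran from 547.4 to 639.1 on the ERRγ-null arrays and from 390.4 to 565.3 on the wild-type arrays. Between 11376 and 12013 probes were above background (detection p under 0.05) on an ERRγ-null array, against 11022 to 11607 on a wild-type array. The single probe for Esrrg, the disrupted gene, had log2 signals of 4.97 and 4.92 in the ERRγ-null samples, against 4.92 and 4.93 in the wild-type samples. It was above background on 0 arrays and so does not check the labels. Of 7 markers of cortical projection neurons, 4 were on the array and 3 were tested, namely Bcl11b, Tbr1 and Neurod2, each above background on all 8 arrays. The Neurod6 probe, and that of the synaptic gene Snap25, were above background on no array, so a probe at background does not by itself show that a transcript is absent.

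Most potassium channel genes gave no signal that could be tested. A probe was kept when it was above background on at least 4 of the 8 arrays, which held for 34 of the 117 Kcn probes (29.1%), against 45% of all probes. These probes gave 29 tested genes, each represented by its brightest kept probe, and 22 of the 29 were above background on every array. Their normalized log2 signal had a median of 6.82, against 8.54 for all 8098 genes tested. Brightness depends on the probe as well as on the transcript. Apart from such medians over many genes, signals are therefore compared between samples and not between genes.

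Detection differed between channel classes. Tested genes made up 8 of 23 voltage-gated pore subunits, 2 of 9 electrically silent subunits and 2 of 12 inward rectifiers. They also made up 4 of 13 two-pore channels, 4 of 7 genes classed by symbol as calcium-activated and 9 of 16 accessory genes. The other 51 genes were not tested. Of these, 42 had no probe above background on any array. They included the Shaker-type genes Kcna1, Kcna4, Kcna5 and Kcna7, the A-type channel genes Kcnd1 and Kcnd3, and Kcnq1 and Kcnq5 of the Kcnq family. Among inward rectifiers they included Kcnj1, Kcnj5, Kcnj9, Kcnj12, Kcnj15 and Kcnj16. Among two-pore channels they were Kcnk4, Kcnk5, Kcnk6, Kcnk7, Kcnk9, Kcnk12, Kcnk13, Kcnk15 and Kcnk18, and among calcium- or sodium-activated channels Kcnn3, Kcnn4 and Kcnt1. The remaining genes at background were Kcnh4, Kcnh5, Kcnh6 and Kcnh7, the silent subunits Kcng1, Kcng3, Kcng4, Kcns2, Kcns3 and Kcnv2, and the accessory genes Kcne2, Kcne3, Kcne4, Kcnip4, Kcnmb1 and Kcnmb2.

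**Figure D1:**
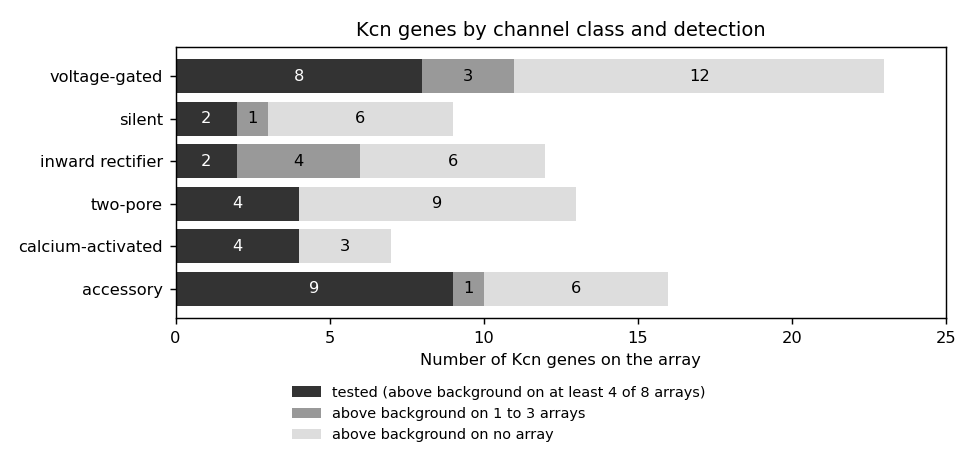
Horizontal bars count the Kcn genes on the array (x axis, number of genes) in each channel class (y axis), split by whether the gene was tested, above background on 1 to 3 arrays, or above background on no array. Accessory genes had 9 tested members of 16, and inward rectifiers 2 of 12.

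The other 9 untested genes were above background on 1 to 3 arrays. Kcns1, a silent subunit gene, was above background on 3 ERRγ-null arrays and 0 wild-type arrays. Its log2 signal was 6.08 and 5.99 in the ERRγ-null samples, against 5.75 and 5.57 in the wild-type samples. Kcna6, Kcnj6 and Kcne1 were each above background on 2 ERRγ-null arrays and 0 wild-type arrays, and Kcnj8 on 1 ERRγ-null and 0 wild-type arrays. Kcnj6 encodes a subunit of G protein-activated inward rectifiers, and Kcnj8 the pore of an ATP-sensitive channel of vascular mural cells. Kcna3, Kcnj2 and Kcnj14 were above background on 1 array of each genotype, and Kcna10 on 0 ERRγ-null arrays and 1 wild-type array. In all, 35, 37, 38 and 35 Kcn probes were above background on the ERRγ-null arrays, against 34, 34, 31 and 33 on the wild-type arrays. The Kcn counts did not overlap between the genotypes, but the nearest were 35 and 34, and the 4 arrays of a genotype come from 2 samples. Counts over all probes did overlap, at 11376 to 12013 on the ERRγ-null arrays and 11022 to 11607 on the wild-type arrays. Mean intensity overlapped, with the 3 dimmest arrays all wild type, and the part of brightness in these counts was not tested.

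No tested potassium channel gene differed between the genotypes after adjustment. By limma with Benjamini-Hochberg adjustment over all 8098 genes, 0 of 29 passed a threshold of 0.05, where 0.0123% of all genes did, and the smallest adjusted p was 0.377. At an unadjusted p under 0.05 there were 2 Kcn genes, Kcnh1 and Kcnj4, where 7.22% of all genes were past that level. Both were higher in ERRγ-null cortex, where 3.61% of all genes were higher and 3.62% lower. Each difference below is a log2 value, ERRγ-null minus wild type. The median difference over the 29 genes was 0.02, with 15 higher and 14 lower, beside a median of 0.00 and 50.6% higher over all genes. When arrays were scaled by their medians instead of quantiles, the median of all genes shifted by 0.17 and 24 of the 29 Kcn genes lay above 0. Relative to that shift the Kcn median was again 0.02, with 17 genes above it and 12 below, and 2 of the 14 lower genes, Kcnmb4 and Kcnip3, lay above it by 0.02 or less. The median absolute difference was 0.12 both for Kcn genes and for all genes.

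**Figure D2:**
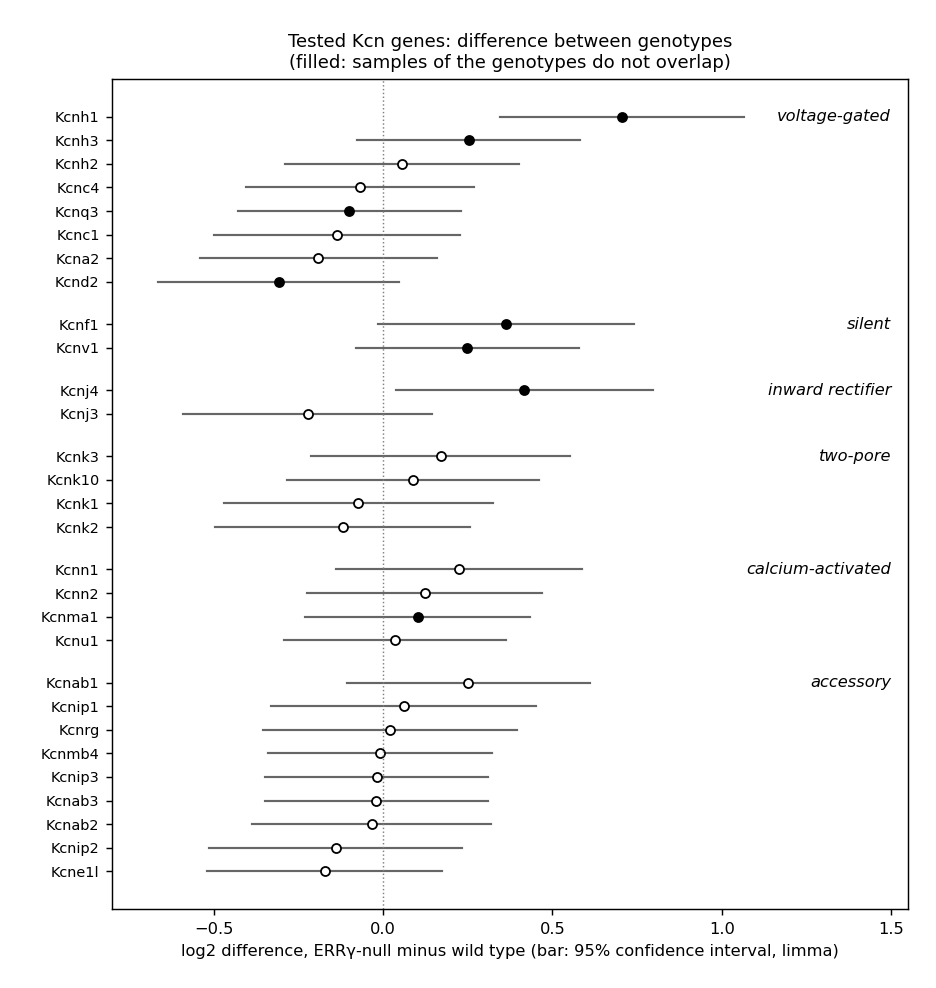
Points give the log2 difference, ERRγ-null minus wild type, of the 29 tested Kcn genes by channel class, and bars the 95% confidence interval from limma. Filled points mark the 8 genes whose samples do not overlap between the genotypes, and only the intervals of Kcnh1 and Kcnj4 leave out 0.

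Spread between samples was somewhat wider for Kcn genes than for all genes. The 2 samples of a genotype differed by a median of 0.237 on the log2 scale over the 29 genes, against 0.177 over all genes. The 2 arrays of a sample differed by a median of 0.230, against 0.206 over all genes. Kcn genes were also dimmer, with a median log2 signal of 6.82 against 8.54, and the part of brightness in this spread was not tested. Both ERRγ-null samples lay above both wild-type samples for 6 Kcn genes and below them for 2, where the shares over all genes were 17.7% and 17.3%. These 8 genes of 29 compare with 35.1% of all genes in either direction. Kcnd2 was the 1 Kcn gene for which all 4 arrays of a genotype lay apart from the other 4, where 5.85% of all genes did.

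**Figure D3:**
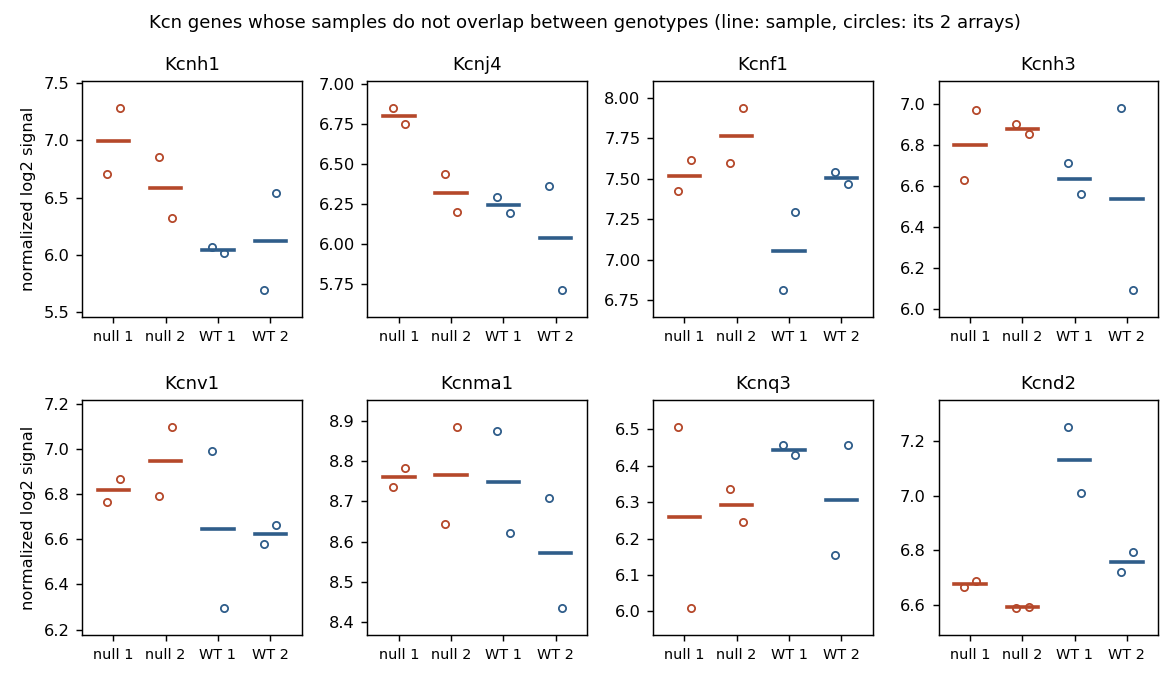
Each panel shows the normalized log2 signal (y axis) of 1 Kcn gene whose samples do not overlap, with a line for each biological sample and circles for its 2 arrays, ERRγ-null in red and wild type in blue. Single arrays of the genotypes overlap in every panel except that of Kcnd2, and for Kcnma1 the nearest samples lie 8.76 against 8.75.

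Among voltage-gated channels, Kcnh1 had the largest difference of the 29 genes. It encodes a channel of the ether-à-go-go family that activates slowly on depolarisation and shapes neuronal excitability. Its log2 signal was 6.99 and 6.59 in the ERRγ-null samples, against 6.05 and 6.12 in the wild-type samples. Both ERRγ-null samples were higher, but single arrays overlapped, with 6.32 on the lowest ERRγ-null array and 6.54 on the highest wild-type array. The difference was 0.71, or 1.63-fold, with a standard error (SE) of 0.17 and a 95% confidence interval from 0.35 to 1.07 (limma adjusted p = 0.377). It ranked 15 of 8098 by p-value. The transcript was above background on 4 ERRγ-null and 3 wild-type arrays, so the wild-type level lies near background.

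The size of the Kcnh1 difference depended on how background was treated. It was 0.31 without background correction and 0.34 in the deposited normalized table, and 0.62 under median scaling once the common shift of 0.17 was taken off. With the shift left in, the value was 0.80 and passed (limma adjusted p = 0.0391), as 1 of 20 genes to do so. A second Kcnh1 probe was above background on no array, at 5.12 and 4.91 in the ERRγ-null samples and 4.99 and 5.17 in the wild-type samples. It therefore does not check the first. On chromosome 1 of GRCm38.p6 the RefSeq annotation places 28 protein-coding genes between Kcnh1 and Esrrg, the gene disrupted in the null mice. Only Kcnk2, with 2 genes between, lies closer among the members on that chromosome, where Kcnj9, Kcne4 and Kcnq5 were not measured above background.

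**Figure D4:**
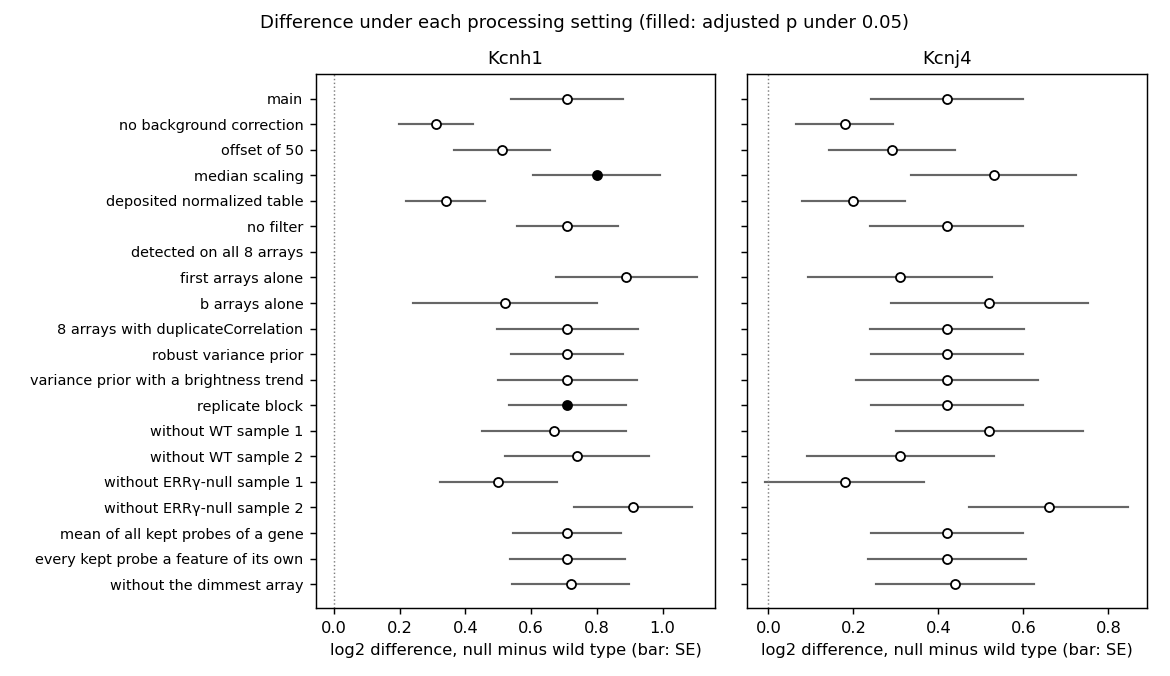
Points give the log2 difference, ERRγ-null minus wild type, of Kcnh1 (left) and Kcnj4 (right) under each processing setting (y axis), bars the SE, and filled points an adjusted p under 0.05. All points lie above 0, from 0.31 to 0.91 for Kcnh1 and from 0.18 to 0.66 for Kcnj4, with the shift of 0.17 left in for median scaling, and neither gene has a point where detection on all 8 arrays was required.

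The promoters of 2 tested members contain the letters to which estrogen-related receptors are known to bind, AAGGTCA, and are shown because the receptor missing here belongs to that family. RefSeq promoter windows of 300 bases (GRCm38.p6) were searched on both strands. They were found for 62 of the 80 Kcn genes, and 3 of these genes held the letters (4.84%), against 5.38% of all genes with a window. The genes were Kcnh1, Kcnf1 and Kcnj16, of which Kcnj16 was not measured above background. With the longer form TNAAGGTCA, 1 Kcn gene matched, Kcnj16 (1.61% of genes, against 1.43% of all genes). A match is a description of the letters and does not show a binding site. Capitals mark the match, which lies on the opposite strand in Kcnh1 (chr1:192190527-192190826, plus strand, bases 28 to 34 of the window) and on the gene's own strand in Kcnf1 (chr12:17176839-17177138, minus strand, bases 176 to 182).
Kcnh1: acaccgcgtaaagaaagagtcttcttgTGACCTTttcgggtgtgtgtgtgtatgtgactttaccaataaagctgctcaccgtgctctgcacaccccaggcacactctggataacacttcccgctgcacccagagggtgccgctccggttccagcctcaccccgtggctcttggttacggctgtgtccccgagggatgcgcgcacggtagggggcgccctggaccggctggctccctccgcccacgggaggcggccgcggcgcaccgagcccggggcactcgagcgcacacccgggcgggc
Kcnf1: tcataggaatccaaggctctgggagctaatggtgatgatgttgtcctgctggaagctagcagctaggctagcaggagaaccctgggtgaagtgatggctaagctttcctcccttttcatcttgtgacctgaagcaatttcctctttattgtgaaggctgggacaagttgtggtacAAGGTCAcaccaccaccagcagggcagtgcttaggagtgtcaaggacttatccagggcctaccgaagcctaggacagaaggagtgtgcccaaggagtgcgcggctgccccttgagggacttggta

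The other tested members of the Kcnh family were Kcnh3 and Kcnh2. Kcnh3, which encodes a forebrain channel of the same family, had a log2 signal of 6.80 and 6.88 in the ERRγ-null samples, against 6.64 and 6.54 in the wild-type samples. The samples did not overlap, but the difference of 0.25 (SE 0.16, limma adjusted p = 0.799) turned to -0.08 with the first arrays alone. Kcnh2, whose human counterpart carries the rapid delayed rectifier current of the heart, had a difference of 0.06 with 1 kept probe and 0.05 with the other.

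Kcnd2 had the lowest value of any tested member. It encodes the pore of the dendritic A-type current, which opposes back-propagating action potentials. Kcnd2 had a log2 signal of 6.68 and 6.59 in the ERRγ-null samples, against 7.13 and 6.76 in the wild-type samples, so that both ERRγ-null samples were lower. Its single arrays lay between 6.59 and 6.69 in ERRγ-null cortex, and between 6.72 and 7.25 in wild-type cortex. The difference was -0.31 (SE 0.17, 95% confidence interval from -0.67 to 0.05, limma adjusted p = 0.758). Wild-type sample 1 stood above the other 3 samples, and without it the difference was -0.12.

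Kcnq3, a subunit gene of the M-current that limits repetitive firing, had log2 signals of 6.26 and 6.29 in the ERRγ-null samples, against 6.44 and 6.31 in the wild-type samples. The samples did not overlap, yet the difference of -0.10 (SE 0.16) is smaller than its error and became 0.12 with the first arrays alone. Kcna2, the gene of an axonal Shaker-type channel, had a difference of -0.19. The tested genes of the Kcnc family had differences of -0.14 for Kcnc1, known from fast-spiking neurons, and -0.07 for Kcnc4. Under median scaling, with the common shift taken off, they were -0.12 and -0.04. The 8 voltage-gated genes had a median difference of -0.08, with 3 higher and 5 lower.

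Electrically silent subunits form no channel alone and modify delayed rectifiers of the Kcnb family when they join them. Both tested genes of this class were higher in ERRγ-null cortex, and neither passed. Kcnf1 had a log2 signal of 7.52 and 7.77 in the ERRγ-null samples, against 7.05 and 7.51 in the wild-type samples, a difference of 0.36 (SE 0.18, 95% confidence interval from -0.02 to 0.74, limma adjusted p = 0.711). Here the ERRγ-null sample 1 and wild-type sample 2 nearly met. Wild-type sample 1 stood low, and its first array, the dimmest of the 8, lay lowest at 6.82. The difference was 0.14 without that sample and 0.24 without that array alone.

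Kcnv1 had a log2 signal of 6.82 and 6.95 in the ERRγ-null samples, against 6.64 and 6.62 in the wild-type samples. The difference of 0.25 (SE 0.16, limma adjusted p = 0.803) was -0.01 with the first arrays alone, so it rested on the b arrays.

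Inward rectifiers were represented by Kcnj4 and Kcnj3, both near background. Kcnj4 encodes a strong inward rectifier of forebrain neurons that holds the resting potential negative. The log2 signal of Kcnj4 was 6.80 and 6.32 in the ERRγ-null samples, against 6.24 and 6.04 in the wild-type samples. ERRγ-null sample 1 stood apart, and ERRγ-null sample 2 lay close to wild-type sample 1. The difference was 0.42, or 1.34-fold (SE 0.18, 95% confidence interval from 0.04 to 0.80, limma adjusted p = 0.630). It was 0.18 without ERRγ-null sample 1, 0.18 without background correction and 0.20 in the deposited normalized table. Kcnj4 was above background on 4 ERRγ-null and 3 wild-type arrays.

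Kcnj3, a subunit gene of the G protein-activated inward rectifier, had log2 signals of 5.93 and 6.23 in the ERRγ-null samples, against 6.13 and 6.47 in the wild-type samples. The genotypes overlapped, and the difference was -0.22 (SE 0.17). It was above background on 3 ERRγ-null and 4 wild-type arrays.

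Of 13 marker lists, 3 had a higher mean in both ERRγ-null samples than in both wild-type samples, and 1 had a lower one. Among single genes, 17.7% of all tested were higher without overlap and 17.3% lower. Markers of striatal projection neurons were 1 of the 3 higher lists. Of 8 striatal markers, 5 were on the array and 4 were tested. Averaged over the 4 genes, the log2 signal reached 7.90 and 7.72 in the ERRγ-null samples, against 7.64 and 7.63 in the wild-type samples. The dopamine receptor gene Drd1 had a difference of 0.48 and Rgs9 one of 0.17, both without overlap, while Ppp1r1b (0.10) and the other dopamine receptor gene Drd2 (-0.06) overlapped. Tac1 was above background on no array. The other lists were the oligodendrocyte lineage, with means of 8.72 and 8.75 in the ERRγ-null samples against 8.58 and 8.67 in the wild-type samples, and choroid plexus and ependyma, with 6.53 and 6.59 against 6.42 and 6.34. In the oligodendrocyte list Gpr17 had a difference of 0.67 and Pdgfra one of 0.06, while Cspg4 (-0.22) and Olig1 (-0.07) were lower. In the choroid plexus list Sostdc1 had 0.59 and the other tested gene, Aqp1, had -0.23. The list of radial glia and astrocytes was lower, with 8.28 and 8.23 in the ERRγ-null samples against 8.36 and 8.28 in the wild-type samples. The part of these cells in the Kcnh1 and Kcnj4 values was not tested. Over the 13 marker lists, 52 genes were tested, with 0 past the threshold by limma, where 0.0123% of all genes passed. At an unadjusted p under 0.05 there were 4 higher and 1 lower, where 3.61% of all genes were higher and 3.62% lower. Median differences ran from -0.06 for radial glia and astrocytes to 0.37 for meninges and fibroblasts. The meningeal list had 2 tested genes of 6, Igf2 and Dcn, with means of 7.87 and 9.24 in the ERRγ-null samples and 8.27 and 8.09 in the wild-type samples. In bulk tissue, more or fewer cells of a type and more or less RNA per cell cannot be told apart.

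Two-pore channels, which carry the leak current that sets the resting potential, overlapped between the genotypes for all 4 tested genes. Kcnk2 encodes a leak channel opened by stretch and lipids and lies closest to Esrrg among the members. Its log2 signal was 8.38 and 8.81 in the ERRγ-null samples, against 8.84 and 8.59 in the wild-type samples. The difference was -0.12 (SE 0.18, 95% confidence interval from -0.50 to 0.26). Kcnk1, a weak leak channel gene, had a difference of -0.07, and the acid-sensitive channel gene Kcnk3 one of 0.17. Kcnk10, a relative of Kcnk2, had a difference of 0.09, but -0.42 with the first arrays alone. The 2 arrays of a sample differed by a median of 0.383 over these 4 genes, the widest technical spread of the 6 classes.

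The calcium-activated class was grouped by gene symbol and includes Kcnu1, and whether calcium opens each member was not tested. All 4 tested genes of this class had values above 0, with a median difference of 0.11 and none past the threshold. Kcnma1 encodes the pore of the large-conductance channel that ends action potentials. Log2 signals of Kcnma1 were 8.76 and 8.77 in the ERRγ-null samples, against 8.75 and 8.57 in the wild-type samples. The samples did not overlap, but the nearest ones differed less than the arrays of 1 sample did. The difference was 0.10 (SE 0.16), and -0.10 with the first arrays alone. Kcnn1 and Kcnn2 encode small-conductance channels of the afterhyperpolarisation. Kcnn1 had a difference of 0.22 (SE 0.17) and Kcnn2 of 0.12 (SE 0.16), and with the b arrays alone these were -0.21 and -0.31.

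Kcnu1, known in mouse as a channel gene of sperm, gave a signal above background on all 8 arrays. Its log2 signal was 7.91 and 7.98 in the ERRγ-null samples, against 7.90 and 7.92 in the wild-type samples. The difference was 0.03, with a 95% confidence interval from -0.29 to 0.36. Only 1 probe reads this gene, and how specific it is was not tested.

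By the probe standing for each gene, accessory genes had the smallest differences, with a median absolute value of 0.03 over 9 genes. None had samples that did not overlap by that probe, but the samples of a second Kcnmb4 probe, given below, did not overlap. Kcnab1, the gene of a cytoplasmic beta subunit that speeds inactivation of Shaker-type channels, was read by 3 kept probes. The brightest had log2 signals of 8.43 and 8.10 in the ERRγ-null samples, against 7.90 and 8.13 in the wild-type samples, a difference of 0.25 (SE 0.17). The other 2 probes had differences of 0.19 and 0.03. The related genes Kcnab2 and Kcnab3 had differences of -0.03 and -0.02.

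Kcnmb4, which encodes the neuronal beta subunit of the large-conductance calcium-activated channel, was read by 2 kept probes whose differences did not match. Probe ILMN_3028187, the slightly brighter one, had log2 signals of 8.92 and 9.05 in the ERRγ-null samples, against 9.02 and 8.97 in the wild-type samples. Its difference was -0.01 (SE 0.16). Probe ILMN_3101339 had log2 signals of 9.21 and 9.13 in the ERRγ-null samples, against 8.68 and 8.89 in the wild-type samples. Its samples did not overlap, and its difference was 0.38 (SE 0.16, limma adjusted p = 0.660 over all kept probes, of which 0.00864% passed). Both probes were above background on all 8 arrays, and averaging them gave 0.19. Whether they read different transcripts was not tested.

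**Figure D5:**
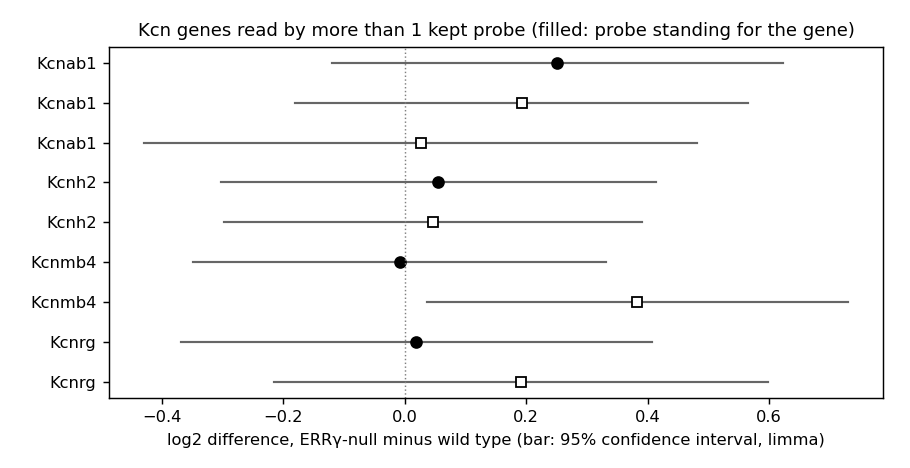
Points give the log2 difference, ERRγ-null minus wild type, of each kept probe of the 4 tested Kcn genes with more than 1 kept probe, from the fit over all kept probes, and bars the 95% confidence interval from limma. Filled circles mark the probe that stands for the gene, and the Kcnmb4 probes lie at -0.01 and 0.38.

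The KChIP genes, whose products bind calcium and bring A-type channels to the cell surface, had differences of 0.06 for Kcnip1, -0.14 for Kcnip2 and -0.02 for Kcnip3. Kcne1l, an X-linked gene of the single-span Kcne family, had log2 signals of 8.62 and 8.36 in the ERRγ-null samples, against 8.74 and 8.59 in the wild-type samples. The samples overlapped, and the difference was -0.17 (SE 0.16). Kcnrg, whose product holds back the assembly of voltage-gated channels, had differences of 0.02 and 0.19 by its 2 kept probes. The second probe lay near background, at 6.05 and 6.05 in the ERRγ-null samples, against 5.57 and 6.15 in the wild-type samples. It was above background on 3 ERRγ-null arrays and 1 wild-type array.

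Genes that work with these channels but carry other symbols also gave no call. Of 36 such genes, 25 were tested, with 0 past the threshold by limma. Of the 25, 9 were higher and 16 lower, with a median of -0.07, beside 50.6% higher over all genes. At an unadjusted p under 0.05 there was 1 of the 25, lower in ERRγ-null cortex, which is 4% of them, beside 7.22% of all genes. This was Adam22, which encodes a receptor that anchors Shaker-type channels, with 5.79 and 5.91 in the ERRγ-null samples and 6.37 and 6.16 in the wild-type samples (limma adjusted p = 0.557). It was above background on 2 ERRγ-null and 4 wild-type arrays. Dpp6, an auxiliary subunit gene of A-type channels, had a difference of 0.14, and Dpp10 one of -0.19. Amigo1, an auxiliary gene of Kcnb channels, had 0.29, and Cntnap2, which helps to cluster Shaker-type channels along axons, had -0.25. The 5 tested cyclic nucleotide-gated relatives all had values below 0, with a median of -0.11. Samples did not overlap for Cngb1 (-0.26) and Cnga1 (-0.25), where 17.3% of all genes were lower without overlap. They overlapped for Hcn2 (-0.11), Cnga4 (-0.09) and Hcn3 (-0.03). Of these 5, 0 were at an unadjusted p under 0.05 by limma.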

How the data were processed

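Total RNA from postnatal day 0 cortex was made into biotinylated cRNA for Illumina arrays, per the labels' protocols. The authors deposited 1 mean bead intensity per probe and array, linear and not normalized, with a detection p-value beside it, per the file headers. A second deposited table holds intensity values brought to a common distribution by an unstated method (column medians 142.5 to 142.7), used as an alternative. The submitters' processing notes name GenomeStudio, without a version, and the sources used here give no genome build.

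Analysis used limma 3.58.1 in R 4.3.3. Its function neqc took the background from the detection p-values, added an offset of 16, quantile-normalized and took log2. Probes with detection p under 0.05 on at least 4 of 8 arrays were kept (11568 of 25697), and a gene was its brightest kept probe (8098 genes). The 2 arrays of a sample were averaged, leaving n = 2 per genotype. The comparison used lmFit and eBayes (14.0 prior and 2 residual degrees of freedom), two-sided, adjusted over all genes. SEs are moderated, so they lean on the spread of all genes. Members and lists were chosen with earlier results of these data known. Statistics are given for genes with non-overlapping samples, the 2 smallest p-values per class, genes with several kept probes, members on the chromosome of Esrrg, and listed well-known members. Listed members with no probe under that symbol were not analysed here. Symbols are those of the platform annotation, and all 117 Kcn probes matched a RefSeq gene of GRCm38.p6. Alternatives covered background, offset, scaling, deposited values, filter, arrays, variance prior, replicate block, left-out samples, probe choice and threshold.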

Additional observations from a re-analysis of the deposited data

How the results depend on the processing

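With 2 samples per genotype, differences near 0.3 on the log2 scale are about 2 SEs here, and many members lie near background. The count of Kcn genes past the threshold was 0 in the reported fit and 1, Kcnh1, with median scaling and with the replicate number as a replicate block (adjusted p = 0.0478), and 0 in the other settings. The sample titles do not say whether the replicate numbers pair the samples. Deviations from the group means correlated at 0.00815 between the samples numbered 1, over all tested genes. That value shows no broad shared shift, but cannot show that the samples were unpaired. Over all genes the count was 1, against 20 with median scaling and 12 with the block. With wild-type sample 1 or 2 left out it was 22 or 17, and with either ERRγ-null one left out 0. The Kcn median was 0.19 with median scaling, or 0.02 with the common shift taken off, and ran from -0.0477 to 0.0617 with 1 sample left out. Of 544 pairs of a gene and a setting, 487 kept the direction and side of the threshold, 2 newly passed and 55 changed sign, 46 of them outside median scaling. The sign held in every setting for 6 genes, Kcnh1, Kcnj4, Kcnf1, Kcnd2, Kcnab1 and Kcnj3. With median scaling, Kcnc1 had 0.06, Kcnk1 0.11, Kcnmb4 0.19, Kcnab2 0.17, Kcnk2 0.09, Kcne1l 0.03, Kcnc4 0.13, Kcnip3 0.18 and Kcnab3 0.05, where all genes shifted by 0.17. Relative to that shift 2 of these 9, Kcnmb4 and Kcnip3, lay above it. With the first arrays alone, Kcnmb4 had 0.03, Kcnma1 -0.10, Kcnk2 0.13, Kcnip3 0.04, Kcnrg -0.17, Kcnip1 -0.08, Kcnv1 -0.01, Kcnh3 -0.08, Kcnq3 0.12, Kcna2 0.01, Kcnab3 0.03 and Kcnk10 -0.42. With the b arrays alone, Kcnc4 had 0.06, Kcnu1 -0.06, Kcnh2 -0.11, Kcnn2 -0.31 and Kcnn1 -0.21. Averaging probes gave Kcnmb4 0.19. Without the dimmest array, a setting chosen after seeing the data, Kcnab2 had 0.01, Kcnu1 -0.01 and Kcnh2 -0.03. Leaving out 1 sample at a time, values ran from -0.36 to 0.21 for Kcnk1, -0.08 to 0.06 for Kcnmb4, -0.20 to 0.13 for Kcnab2, -0.34 to 0.10 for Kcnk2, -0.17 to 0.04 for Kcnc4, -0.08 to 0.04 for Kcnip3, -0.07 to 0.18 for Kcnh2 and -0.38 to 0.10 for Kcnip2. The ranges were -0.21 to 0.25 for Kcnrg, -0.03 to 0.28 for Kcnn2, -0.10 to 0.44 for Kcnk3, -0.08 to 0.04 for Kcnab3, -0.13 to 0.31 for Kcnk10, -0.33 to 0.06 for Kcnc1, -0.22 to 0.35 for Kcnip1 and 0.00 to 0.07 for Kcnu1. A lone sample was assumed to vary like the others. The cause of these changes was not tested.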
